A study of Mus musculus with 2 samples.

Results

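The peroxide-reducing genes described here were the peroxiredoxins Prdx1, Prdx2, Prdx3, Prdx4, Prdx5 and Prdx6, the glutathione peroxidases Gpx1 and Gpx4, thioredoxin (Txn1) and glutaredoxin (Glrx). They were chosen by name, with earlier results of these data known, and these 10 are a small part of the 38458 gene columns in the tables. All 10 had at least 50 unique molecular identifiers (UMIs, each marking 1 captured RNA molecule) over both libraries, the minimum that 6984 genes met and that is called tested below. Mouse embryonic stem cells (mESCs) of the DKO741 line were compared at PD100 (pre-ALT) and at PD800 (post-ALT). The line is an E14 derivative in which both alleles of Terc, the telomerase RNA gene, were targeted. The labels give the time points as passage 100 and passage 800, while the paper counts them in population doublings (PD). ALT, alternative lengthening of telomeres, is the upkeep of telomeres without telomerase. Both libraries carry the Terc knock-out, no agent was given, and no Terc+/+ library was analysed here. Single cells were profiled at both time points to see how evenly a difference in expression was spread over a culture. Each group was 1 library of 1 targeted line, so library and time point cannot be told apart, and no test between groups is given. Intervals are 95% intervals that cover counting error only.

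Peroxiredoxins reduce hydrogen peroxide and organic peroxides with an active-site (peroxidatic) cysteine, and most of them are returned to the reduced form by thioredoxin. The glutathione peroxidases Gpx1 and Gpx4 do the same work with a selenocysteine and take their electrons from glutathione. Selenocysteine is encoded by a TGA codon that would otherwise end translation. Thioredoxin and glutaredoxin reduce disulfides through a pair of neighbouring cysteines, thioredoxin with electrons from thioredoxin reductase and glutaredoxin with electrons from glutathione.

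The active-site residues differ between the families, and the genes were chosen by family name, so these residues are background and not a result. The codons around them, read 5′ to 3′ on the coding strand from GENCODE transcripts of GRCm38, are printed to show how alike the active sites are. In the peroxiredoxins the capitals mark the codon of the peroxidatic cysteine, codon 52 of 199 in Prdx1, 51 of 198 in Prdx2, 109 of 257 in Prdx3, 127 of 274 in Prdx4, 99 of 213 in Prdx5 and 47 of 224 in Prdx6, counted from the start codon.
Prdx1: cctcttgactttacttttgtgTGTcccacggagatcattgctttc
Prdx2: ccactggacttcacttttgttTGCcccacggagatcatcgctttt
Prdx3: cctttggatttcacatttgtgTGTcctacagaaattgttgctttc
Prdx4: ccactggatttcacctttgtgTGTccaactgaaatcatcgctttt
Prdx5: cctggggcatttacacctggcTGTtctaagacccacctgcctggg
Prdx6: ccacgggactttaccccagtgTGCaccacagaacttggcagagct

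In the glutathione peroxidases the capitals mark the selenocysteine codon, codon 47 of 201 in Gpx1 and 129 of 253 in Gpx4. All codon numbers are for the annotated transcript with the longest coding sequence of each gene, Gpx4-201 for Gpx4. They may differ in shorter forms. In Txn1 and Glrx they run from the first to the second cysteine of the pair, codons 32 to 35 of 105 and 23 to 26 of 107.
Gpx1: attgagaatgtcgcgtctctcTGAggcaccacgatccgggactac
Gpx4: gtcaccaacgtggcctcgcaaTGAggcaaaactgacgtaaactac
Txn1: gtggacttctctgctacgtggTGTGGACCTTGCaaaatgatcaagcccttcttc
Glrx: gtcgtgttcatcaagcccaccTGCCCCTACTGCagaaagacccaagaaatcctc

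Over the aligned coding sequences Prdx1 was 69.9% identical to Prdx2, 69.7% to Prdx3 and 69.3% to Prdx4, against 60.4% to Prdx5 and 61.6% to Prdx6. The genes are spread over the genome, with Prdx1 and Txn1 both on chromosome 4 (chr4:116685544-116700822 and chr4:57943373-57956411) and Prdx3 and Prdx5 both on chromosome 19. Prdx2 lies at chr8:84969587-84974834, Gpx4 at chr10:80047166-80056439 and Glrx at chr13:75839868-75850154. All positions are gene bodies, exons and introns included, in GRCm38.

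After the filter on cells (at least 1000 UMIs and at most 20% mitochondrial UMIs), PD100 held 814 cells and 1826233 UMIs and PD800 900 cells and 2580963 UMIs, with medians of 2151 and 2701.5 UMIs per cell. The median mitochondrial share was 1.23% in PD100 and 4.42% in PD800. Of the barcode names, 8 occurred among the cells of both libraries. Terc had 0 UMIs in both libraries, over all barcodes too, but its RNA has no long poly(A) tail and the assay captures poly(A) RNA, so this does not check the knock-out. All 8 embryonic stem cell markers were tested. Their summed level, most of it Dppa5a, was 11797 CPM in PD100 and 12333 CPM in PD800, where CPM are UMIs scaled to a library total of 1000000. The sum hides differences of single markers. By CPM 2 of the 8 were at least 1.5-fold higher in PD800, 0 were lower and 6 lay between. Among all tested genes 15.2% were higher and 36.6% lower. The 2 were Nanog, at a log2 ratio of 1.00 (0.71 to 1.30), and Esrrb, at 1.51 (1.09 to 1.96). The 15 extraembryonic endoderm markers summed to 539.9 CPM in PD100, where 39 cells held UMIs of 4 or more of them, and to 35.3 CPM in PD800, where no cell did and 3 markers were at 0. The 8 fibroblast markers, for feeder cells, had 25 UMIs in PD100 and 32 in PD800, with 2 markers at 0 in each. Over all tested genes the median log2 CPM ratio of PD800 over PD100 was -0.34, and a value called relative below is a log2 ratio after this median is taken off.

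Prdx1 was the gene of the set that stood higher in PD800 by the widest margin, Txn1 stood higher by less, and Glrx and Prdx2 stood lower by more than 2-fold. Of the 10, 1 was at least 1.5-fold higher in PD800 by CPM (Prdx1) and 6 were at least 1.5-fold lower, where 15.2% and 36.6% of all tested genes were. Relative to the median of tested genes 2 were 1.5-fold higher (Prdx1 and Txn1) and 2 lower (Prdx2 and Glrx), beside 24.5% and 20% of tested genes. At 2-fold, 1 gene of the set was higher (9.22% of tested genes) and 2 were lower (16.9%) by CPM, and 1 was higher (13.9%) and 1 lower (7.79%) relative to the median. The share of the set in the higher direction was near the background, and so was the relative share in the lower one. The median log2 ratio of the 10 was -0.66 by CPM and -0.32 relative. Without the cells of shared barcode names the log2 ratio was 1.28 for Prdx1 and -2.33 for Glrx. The call of Gpx1 as 1.5-fold lower was marginal: its log2 ratio was -0.58 without these cells, -0.56 with a looser limit on UMIs per cell, -0.58 with no filter on cells, -0.55 without mitochondrial genes in the total and -0.53 without mitochondrial and ribosomal protein genes, and under each of these 5 settings 5 genes of the set were past 1.5-fold in the lower direction.

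**Figure D1:**
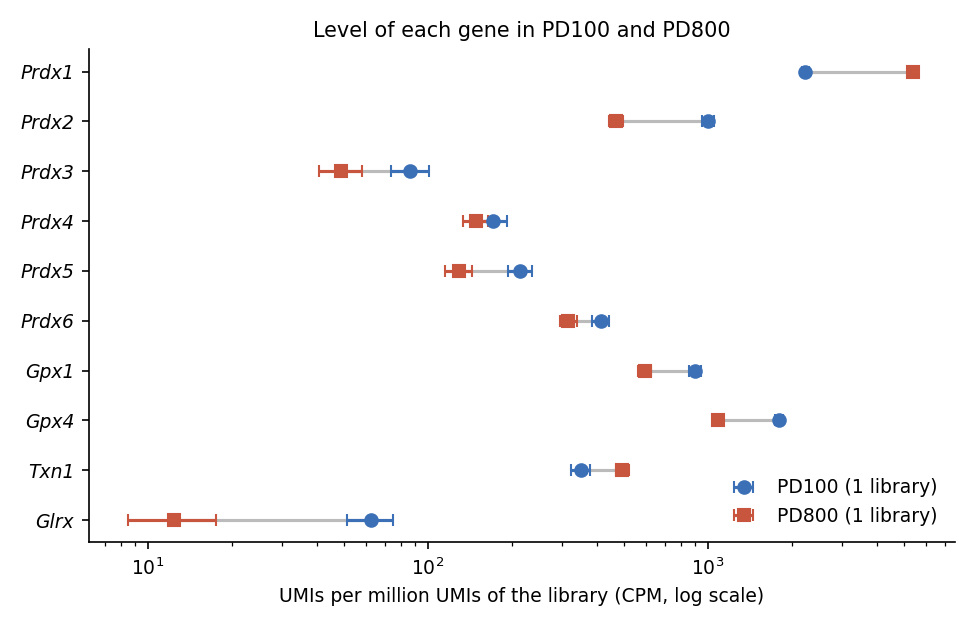
Level of each gene in PD100 (circles) and PD800 (squares) in CPM, on a log axis, 1 library per point, with exact Poisson 95% intervals. Prdx1 and Txn1 lie to the right in PD800, Prdx4 intervals overlap, and the other 7 genes lie to the left.

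Prdx1 and Prdx2 are close relatives that reduce peroxide in the cytosol, and they differed in opposite directions. Prdx1 gave 4067 UMIs at PD100 and 13970 at PD800, or 2227 CPM (2159 to 2297) and 5413 CPM (5323 to 5503). The PD800 level of Prdx1 was 2.43-fold that of PD100, a log2 ratio of 1.28 (interval 1.23 to 1.33) and 1.62 relative. In this ratio Prdx1 was placed 485 of 6984 tested genes from the highest, so a ratio of this size was not rare. Prdx2 had 1826 and 1211 UMIs, or 999.9 CPM (955 to 1047) in PD100 and 469 CPM (443 to 496) in PD800. Its level was 2.13-fold lower in PD800, a log2 ratio of -1.09 (-1.20 to -0.99) and -0.75 relative. The intervals of both genes lie far apart between the libraries and on opposite sides.

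UMIs tag molecules at their 3′ end and carry no term for transcript length, so levels can be set beside each other as UMIs. On that scale Prdx1 made up 30.9% of the UMIs of the 10 genes in PD100 and 62.1% in PD800. The sum over the 10 genes was 7214 CPM at PD100 and 8710 CPM at PD800, which gives a log2 ratio of 0.27 (0.24 to 0.30). Without Prdx1 the other 9 summed to 4987 and 3297 CPM, a log2 ratio of -0.60 (-0.64 to -0.55), so the sign of the sum rests on Prdx1. Counting Prdx1 itself, 52 tested genes had a level at or above it in PD100 and 10 in PD800. Among the 202 genes with 1000 CPM or more in either library, Prdx1 was in the 45 with a ratio at or above its own value, and their median log2 ratio over all 202 was 0.09.

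The peroxiredoxins of the organelles were lower in PD800 by CPM or did not separate. Prdx3, the mitochondrial member, was at 86.5 CPM (73.6 to 101) in PD100 and 48.8 CPM (40.7 to 58.1) in PD800, from 158 and 126 UMIs. Prdx5, which is found in mitochondria, peroxisomes and the cytosol, was at 213 CPM (192 to 235) and 129 CPM (115 to 143). The log2 ratio was -0.83 (-1.17 to -0.48) for Prdx3 and -0.73 (-0.94 to -0.51) for Prdx5, and -0.48 and -0.39 relative. Prdx4, the peroxiredoxin of the endoplasmic reticulum, was at 171 CPM (152 to 191) and 148 CPM (134 to 164), and these intervals overlap. Its log2 ratio of -0.21 (-0.43 to 0.01) was 0.13 relative, so its sign depends on the scaling, and by CPM it also differed between cells of different depth. Prdx6, which works with a single cysteine and glutathione in place of thioredoxin, was at 413 CPM (384 to 444) and 317 CPM (296 to 339). Its log2 ratio of -0.38 (-0.53 to -0.24) lay at the median of tested genes, with a relative value of -0.04.

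Both glutathione peroxidases were lower in PD800 by CPM, by about as much as many other genes. Gpx1, the cytosolic enzyme that removes hydrogen peroxide, was at 897 CPM (854 to 941) in PD100 and 594 CPM (564 to 624) in PD800, from 1638 and 1532 UMIs. The level of Gpx1 was 1.51-fold lower, a log2 ratio of -0.60 (-0.70 to -0.49) and -0.25 relative, so it stood just past 1.5-fold by CPM and inside it relative to the median. Gpx4, which reduces lipid peroxides in membranes and protects cells from ferroptosis, was at 1793 CPM (1732 to 1855) and 1085 CPM (1045 to 1126), from 3274 and 2800 UMIs. The log2 ratio of Gpx4 was -0.72 (-0.80 to -0.65), and -0.38 relative.

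The disulfide reductases differed in opposite directions. Txn1 was at 352 CPM (325 to 380) in PD100 and 494 CPM (468 to 522) in PD800, from 642 and 1276 UMIs. Its level was 1.41-fold higher in PD800, a log2 ratio of 0.49 (0.35 to 0.63) and 0.83 relative. Glrx gave 114 UMIs at PD100 and 32 at PD800, which is 62.4 CPM (51.5 to 75.0) and 12.4 CPM (8.48 to 17.5). Its level was 5.03-fold lower in PD800, a log2 ratio of -2.33 (-2.95 to -1.76) and -1.99 relative, and it was placed 6896 of 6984 tested genes from the highest. The intervals of both genes are apart between the libraries, and that of Glrx is the widest of the set because its counts are the lowest. Over the set, the counting interval lay wholly above 0 for 2 genes and wholly below 0 for 7, where it did so for 19.2% and 45% of tested genes. Such an interval is narrower at higher counts, and the tested genes were not matched to the set in count.

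**Figure D2:**
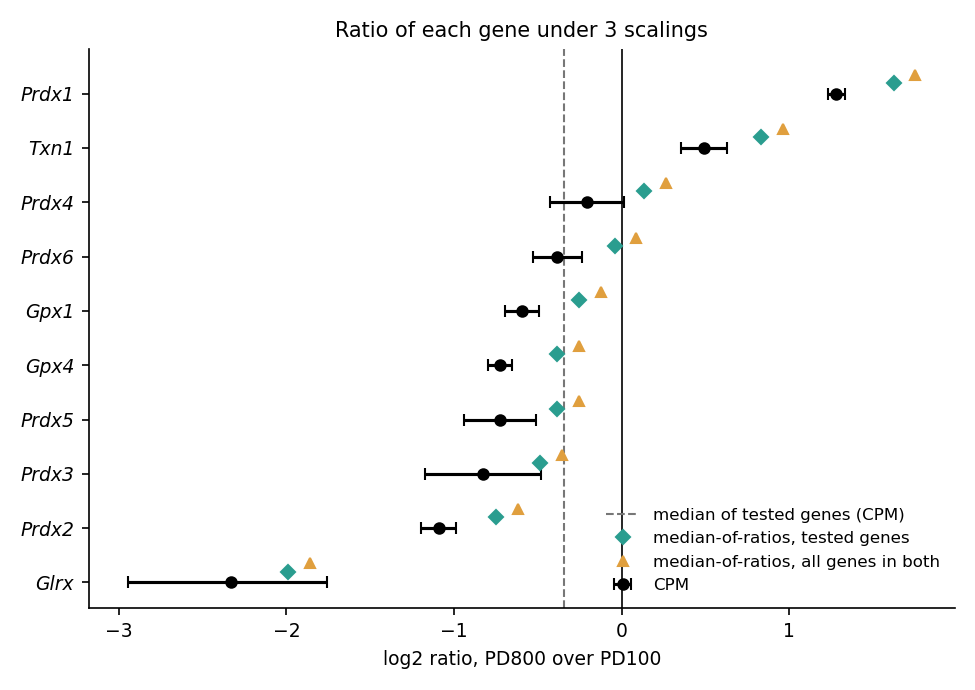
Log2 ratio of PD800 over PD100 for each gene under library-total scaling (CPM, circles with exact 95% counting intervals), median-of-ratios scaling over tested genes (diamonds) and over all genes with a UMI in both libraries (triangles); the dashed line is the median CPM ratio of tested genes, -0.34. Prdx1 and Txn1 stay right of 0 and Prdx2 and Glrx left of it under each scaling, Prdx4 crosses 0 under both median-of-ratios scalings, and Prdx6 crosses it under the scaling over all genes.

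The shares of cells with a UMI were compared at an equal depth of 1000 UMIs drawn without replacement from every cell, with 0 cells too shallow for it. A UMI of Prdx1 was seen in 82.7% (79.9 to 85.2) of PD100 cells and 98.8% (97.8 to 99.4) of PD800 cells, and in 94.1% and 99.9% without thinning. The median cell had 2 Prdx1 UMIs in PD100 and 5 in PD800, and the highest cell 8 and 16. Above 2 UMIs lay 786 of 900 PD800 cells (87.3%) and 291 of 814 PD100 cells (35.7%). The higher Prdx1 level of PD800 was therefore spread over most of its cells, while the ranges of the libraries overlapped.

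A UMI of Prdx2 was seen in 55.5% (52.0 to 59.0) of PD100 cells and 34.0% (30.9 to 37.2) of PD800 cells, and in 76.5% and 64.7% unthinned. For Txn1 these shares were 27.4% (24.4 to 30.6) and 37.7% (34.5 to 40.9), and 43.7% and 65.4% unthinned. Both genes differed in the share of cells in the direction of their CPM, but at such low counts the share follows largely from the mean. Poisson counts with the same mean in every cell would give 63.1% and 37.6% for Prdx2, and 30.4% and 40.9% for Txn1. These shares are therefore not a separate result beside the CPM. Gpx4 was seen in 69.3% (66.0 to 72.4) and 61.0% (57.7 to 64.2) of cells. Unthinned shares compare unequal depths, with medians of 2151 and 2701.5 UMIs per cell. For Gpx4 they were 84.8% and 84.2%, where the difference of the thinned shares was all but gone. At an equal 2000 UMIs, in 465 and 651 cells, the Gpx4 shares were 85.8% and 80.5%. Gpx1 was seen in 52.1% and 39.1% of cells, and in 74.0% and 67.2% unthinned. Of the thinned cells 48 in PD100 (5.90%, 4.38 to 7.74) and 6 in PD800 (0.667%, 0.245 to 1.45) had a UMI of Glrx, against 10.7% and 3.33% unthinned. The Glrx share depends on the draw at so few UMIs: the mean over all possible draws was 5.63% in PD100 and 1.29% in PD800, and another draw gave 5.77% and 1.56%, so the PD800 share printed first is a low one. At this depth most cells of both libraries had no UMI of Glrx, which says nothing on whether they expressed it.

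Prdx3 was seen in 7.86% and 4.11% of thinned cells (13.6% and 10.2% unthinned) and Prdx5 in 17.6% and 11.0% (30.5% and 22.9% unthinned). For Prdx6 the thinned shares were 29.2% and 24.3%, and 44.1% and 41.3% at an equal 2000 UMIs. Its unthinned shares, at unequal depth, were 44.8% and 46.3%. For Prdx4 the thinned shares were 12.0% and 13.6% (24.6% and 28.3% unthinned) against a lower CPM in PD800. At 2000 UMIs they were 25.8% and 22.0%, so no order is read for Prdx4. No cell type known to lack these genes was present, so the share that free RNA alone would give is not known.

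**Figure D3:**
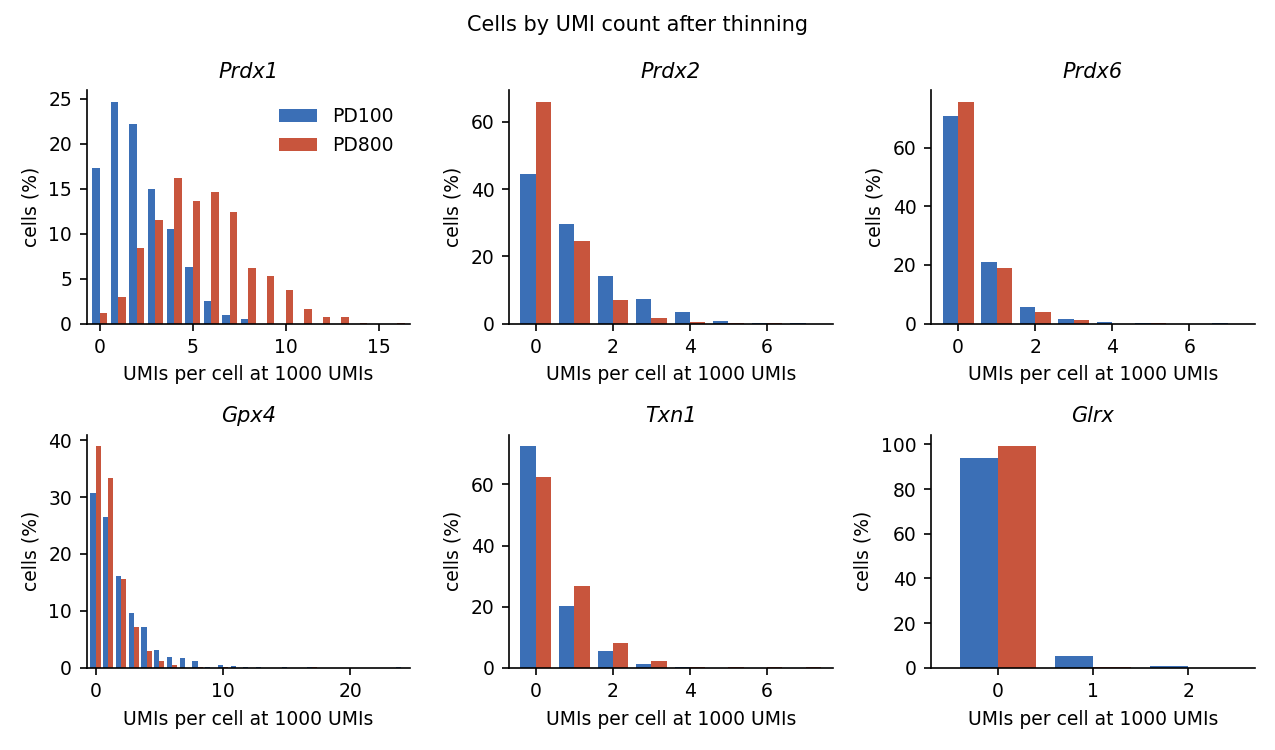
Share of cells (%, vertical axes) by number of UMIs of a gene in a cell thinned to 1000 UMIs (horizontal axes), for Prdx1, Prdx2, Prdx6, Gpx4, Txn1 and Glrx in 814 PD100 and 900 PD800 cells. For Prdx1 the PD800 bars sit around 5 UMIs and the PD100 bars around 2, Gpx4 has a long tail to 24 UMIs in PD100, and for Glrx nearly all cells of both libraries are at 0.

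Within a library Gpx4 varied more than nearly all genes of its level, and the other 9 genes lay inside the range of genes of theirs. The Fano factor, the variance of the thinned counts over cells divided by their mean, lay between 1.06 and 1.45 for the other 9 genes in both libraries. For Gpx4 it was 2.87 in PD100 and 1.68 in PD800, above 98% of the 50 tested genes nearest to it in mean, whose median was 1.41 and 1.23. The other 9 genes lay above 4% (Prdx4 in PD800) to 86% (Prdx6 in PD100) of such genes. Prdx2 lay above 82% in both libraries. In PD100 12 cells and in PD800 2 cells had 10 or more Gpx4 UMIs, with a highest value of 24 and 17. After cells called as doublets were left out the Fano factor of Gpx4 was 2.54 and 1.77, and without cells of 4 or more endoderm markers 2.93 and 1.68. The median cell had UMIs of 4 of the 10 genes in PD100 (range 0 to 9) and of 3 in PD800 (range 1 to 7). Over the cells of a library the largest correlation in size between any pair of the 10 genes was 0.104 in PD100 and 0.069 in PD800 (Pearson's r of sparse thinned counts, a description only). Among tested genes 0 had an r of 0.3 or more with a gene of the set in both libraries, so no gene is named as most like it.

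Library depth and cell makeup were compared with the ratios. In cells of under 2000 UMIs, of 2000 to under 4000 UMIs and of 4000 UMIs or more, the log2 ratio of Prdx1 was 1.30, 1.31 and 1.06, that of Prdx2 -0.95, -1.12 and -1.15, and that of Gpx4 -0.70, -0.69 and -0.75. Txn1 gave 0.56, 0.58 and 0.36, the last with an interval of -0.07 to 0.81 from 33 PD100 cells, and Glrx gave -1.67, -2.70 and -1.98. Each of these 5 genes kept its direction in every depth class, and the log2 ratios of Prdx3, Prdx5, Prdx6 and Gpx1 were below 0 in all of them too. Prdx4 did not keep its direction, with 0.31 (-0.16 to 0.77), -0.46 (-0.76 to -0.17) and -0.02 (-0.66 to 0.67). PD100 cells with a mitochondrial share above their library's median were also set against PD800 cells at or below theirs, which brings the median shares to 1.60% and 3.67%. In these cells Prdx1 was at 1.26, Prdx2 at -1.02, Gpx4 at -0.71, Txn1 at 0.31 and Glrx at -2.89. The log2 ratio of Prdx3 moved to -0.22 (-0.72 to 0.28) there and that of Prdx6 to -0.20 (-0.40 to 0.02), so that both intervals included 0. Within PD800, cells above the median mitochondrial share had a lower level of Prdx3 than the cells at or below it (37.2 and 64.2 CPM of non-mitochondrial UMIs, log2 ratio -0.79, -1.35 to -0.24). The part of the mitochondrial share in the Prdx3 ratio was not tested further.

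The PD100 cells with 4 or more endoderm markers differed from the other PD100 cells in several of the genes. As CPM of non-mitochondrial UMIs, Prdx1 was at 1216 in the 39 marker-bearing cells and 2312 in the other 775 cells, a log2 ratio of -0.93 (-1.21 to -0.66). Prdx6 (-0.93, -1.63 to -0.30), Txn1 (-0.83, -1.58 to -0.18) and Gpx4 (-0.39, -0.66 to -0.14) were lower in these cells too, and Prdx5 was higher (0.67, 0.09 to 1.20). Prdx1 and Txn1, the genes higher in PD800, were thus both lower in cells of a kind not seen in PD800. With those cells left out the PD800 over PD100 log2 ratio was 1.25 for Prdx1, 0.46 for Txn1 and -2.34 for Glrx, all close to the values over all cells.

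**Figure D4:**
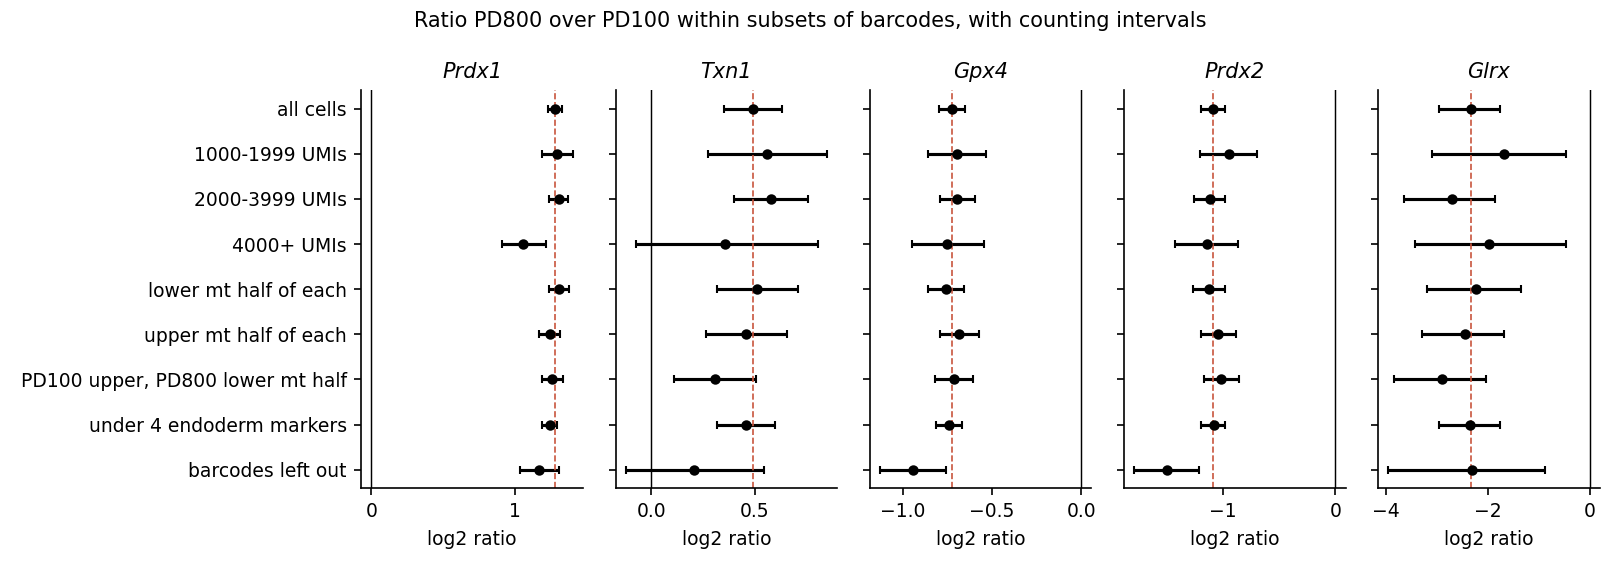
Log2 ratio of PD800 over PD100 with exact 95% counting intervals (horizontal axes) for 5 genes within subsets of barcodes: cells by UMIs, by mitochondrial share, with fewer than 4 endoderm markers, and the barcodes that the filter on cells left out; the dashed line is the value over all cells. Each gene keeps its side of 0 in each subset, and the Txn1 interval reaches 0 in cells of 4000 or more UMIs and in the barcodes left out.

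The annotation around the genes bears on how far the counts belong to them. Prdx2 shares exonic bases on the opposite strand with Junb, which had 427 UMIs in PD100 and 62 in PD800, and with Rnaseh2a, which had 394 and 215. Prdx5 shares such bases with Trmt112 (231 and 330 UMIs). The strand setting of the counting was not given in the sources used here, so the reads of these pairs may not be told apart. Of the 50-base stretches of Gpx4 transcripts 34.7% also occur in transcripts of 2 other genes and of those of Prdx1 8.29% in transcripts of 39 other genes, so reads from there are uncertain. The share was 4.53% for Prdx2, 2.50% for Txn1 and under 0.2% for the other 6 genes.

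The genes were also set beside the 20 tested genes nearest to each on its chromosome. The median log2 ratio of these neighbours was -0.50 for Prdx1, and 1 of the 20 had a ratio as high as Prdx1. It was -1.18 for Prdx2, close to the gene's own -1.09, and over the 395 tested genes of chromosome 8 it was -0.87. For Prdx3, 11 neighbours were found, with a median of -0.91, and the 243 tested genes of chromosome 19 had a median of -0.72. Prdx2 and Prdx3 thus lay close to the values of their neighbourhoods, and Prdx1 and Glrx did not. Gene and neighbour median were -0.38 and -0.34 for Prdx6, -0.60 and -0.46 for Gpx1, and -0.73 and -0.53 for Prdx5. They were -0.21 and -0.46 for Prdx4, and -0.72 and -0.35 for Gpx4. A value near the neighbours was thus not particular to Prdx2 and Prdx3. The neighbours of Glrx had a median of -0.13 and 0 of 20 was as low as Glrx, and those of Txn1 a median of -0.08 with 5 of 20 as high as Txn1.

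The rest of the pathway was read from 6 lists of 91 genes, of which 69 were tested. Of these, 6 were at least 1.5-fold higher in PD800 by CPM (Nqo1, Selenof, Gclm, Sephs2, Msrb2 and Me1), 29 were at least 1.5-fold lower and 34 lay between, beside 15.2% higher and 36.6% lower among all tested genes, with a median log2 ratio of -0.52. Relative to the median of tested genes, 12 were higher and 13 lower, beside 24.5% and 20%, so the split depends on the scaling. The same shares are the background for the counts in each list. The lists overlap, as Gclm and Txnrd1, among others, also stand in the list of Nrf2 and its targets. Counts per list therefore add to more than these totals. Msrb2, Me1 and the other genes with fewer than 200 UMIs named here, Gpx7, Sesn3, Nxn, Hmox1, Nfe2l2, Scly, Secisbp2, Eefsec and Ero1l, were chosen after their values were seen, to complete a small count or because they lay at an extreme or encode Nrf2 itself.

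Among 6 tested genes of other enzymes that remove superoxide and peroxide, 0 were 1.5-fold higher and 3 were lower. Sod1, the cytosolic superoxide dismutase, had a log2 ratio of 0.52 (0.29 to 0.75) and Sod2, the mitochondrial one, -0.57 (-0.76 to -0.38). Gpx3, a secreted glutathione peroxidase, was at -0.67, and the other genes past 1.5-fold were Gpx7 at -0.67 and Sesn3 at -1.50.

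Of 13 tested genes of the thioredoxin system 1 was higher and 4 were lower, with a median of -0.13. Txnrd1, the cytosolic reductase that recycles Txn1, had 134 and 196 UMIs and a log2 ratio of 0.05 (-0.27 to 0.38), beside 0.49 for Txn1. Txn2, the mitochondrial thioredoxin, was at -0.62 (-0.81 to -0.44). Rrm2 and Rrm1, the subunits of ribonucleotide reductase that thioredoxin and glutaredoxin reduce, were at -0.06 and -0.68, and Txndc12, a thioredoxin-like protein of the endoplasmic reticulum, at -1.22. The other genes past 1.5-fold were Msrb2 at 0.63, a reductase of oxidised methionine, and Nxn at -0.65.

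Of 17 tested genes of the glutaredoxins and of glutathione synthesis and use, 1 was higher and 8 were lower. Glrx3 and Glrx5, glutaredoxins that handle iron-sulfur clusters, were at 0.48 (0.38 to 0.59) and 0.46 (0.26 to 0.65), and Glrx2 at -0.19 (-0.44 to 0.05), against -2.33 for Glrx. Glrx thus stood apart from the other 3 glutaredoxins. Gclm, the modifier subunit of the first enzyme of glutathione synthesis, went from 223 to 368 CPM (log2 ratio 0.72, 0.55 to 0.89). Gsr, which keeps glutathione reduced, went from 122 to 50.8 CPM (-1.26, -1.58 to -0.94). Slc3a2, the partner of the cystine carrier, was at -1.11, and the glutathione transferases Gstp1 and Gsto1 were at -1.67 and -1.21 while Gsta4 was at 0.52. Gstp1 is known to load Prdx6 with glutathione.

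Nrf2 is the transcription factor that switches on many of these genes under oxidative stress. Of the 16 tested genes of the list of Nrf2 and its targets 3 were higher and 8 lower, with a median of -0.59. Nqo1, a quinone reductase and a classical target, gave 35 and 215 UMIs, with a log2 ratio of 2.12 (1.60 to 2.68). Gclm at 0.72, already counted in the glutathione list, and Me1 at 0.63 were the others past 1.5-fold in this direction. Hmox1, the haem-degrading enzyme and also a classical target, had 86 and 16 UMIs and the lowest ratio of the list, -2.93, and Nfe2l2, which encodes Nrf2, was at -0.77 from 87 and 72 UMIs. The ferritin genes Fth1 and Ftl1 were at -0.75 and -0.52, Sqstm1, an autophagy receptor, at -1.42 and Tkt, an enzyme of the pentose phosphate pathway, at -1.63. The targets thus differed among themselves in sign.

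Selenoprotein synthesis supplies the residue of Gpx1 and Gpx4. Of the 14 tested genes of this list, which holds selenoproteins as well as genes of their synthesis, 2 were higher and 5 lower. Sephs2, which makes the selenium donor, was at 0.72 (0.52 to 0.93) and Selenof, a selenoprotein of the endoplasmic reticulum, at 1.51 (1.31 to 1.71). Selenoh was at 0.41 and Selenok at -0.84, and Trnau1ap, a factor bound to the selenocysteine tRNA, at -0.70. The other lower genes were Scly at -1.53, Secisbp2 at -0.78 and Eefsec at -0.60. Selenoproteins other than Gpx1 and Gpx4 thus stood on both sides of 0. Of the 6 tested genes for disulfide formation in the endoplasmic reticulum, the compartment of Prdx4, 0 were higher and 2 lower, with P4hb at 0.12, Pdia3 at 0.08, Pdia4 at -0.52, Pdia6 at -0.72 and Ero1l at -0.98.

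**Figure D5:**
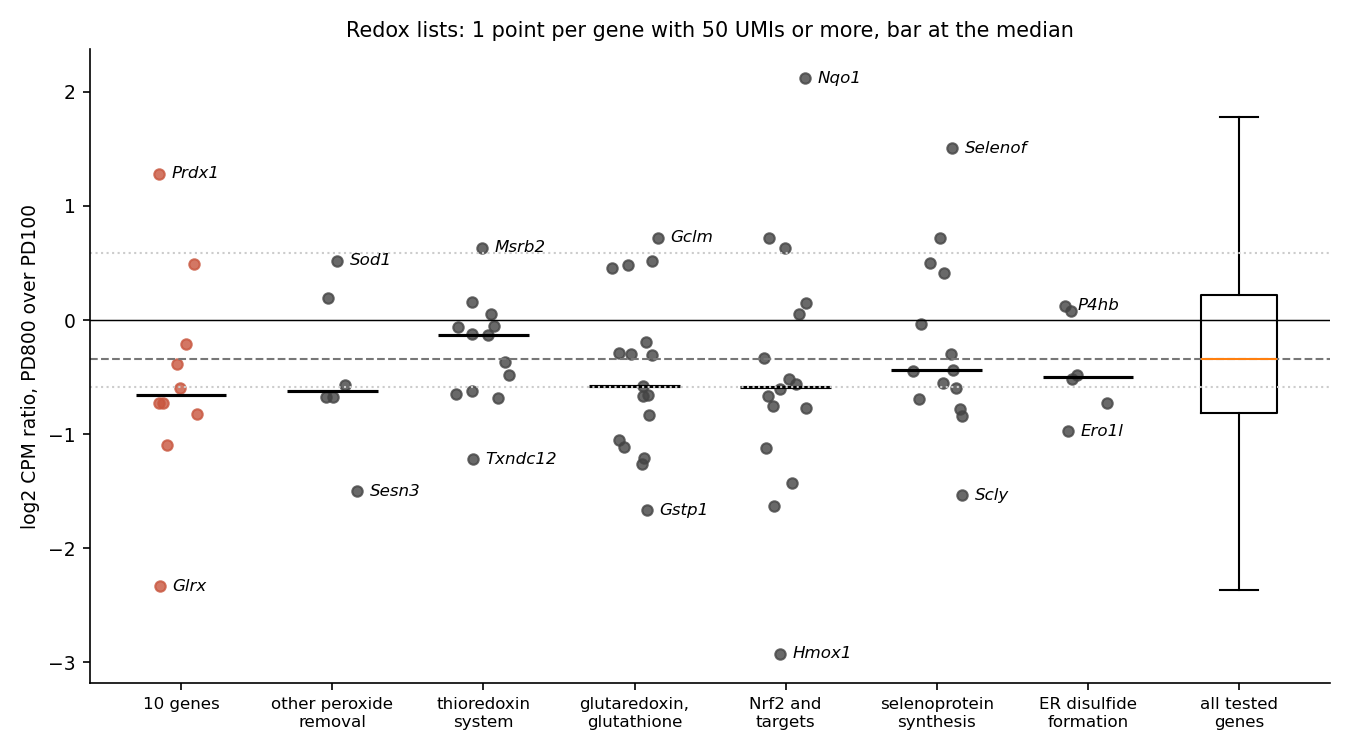
Log2 CPM ratio of PD800 over PD100 (vertical axis) for each tested gene of the set (10 genes) and of the 6 lists, with a bar at each median and the highest and lowest gene of each column labelled whatever its count, beside a box plot of all 6984 tested genes; dotted lines mark 1.5-fold and the dashed line the median of tested genes, -0.34. Prdx1 lies above and Glrx below the other 8 genes of the set, and the medians of the lists lie between -0.13 and -0.62.

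Prdx1 is a known target of Nrf2, and the sequence before its start was read for the core of the antioxidant response element, TGACNNNGC, on both strands. Within 300-base RefSeq windows (250 bases before to 50 after the start, GRCm38.p6) the core occurred in 12.4% of 32851 windows. It occurred in 1 of the 9 genes of the set that had a window, Prdx1, and in 17 of the 88 genes of the set and lists together. These counts are by gene, with a match in any of its windows, and the 12.4% is by window, so they are unlike measures. The 32851 windows belong to 27025 genes. The 195 bases before the first annotated exon of Prdx1, chr4:116685349-116685543 on the plus strand, are shown with the match, which reads TGACNNNGC on the minus strand, in capitals.
Prdx1 upstream: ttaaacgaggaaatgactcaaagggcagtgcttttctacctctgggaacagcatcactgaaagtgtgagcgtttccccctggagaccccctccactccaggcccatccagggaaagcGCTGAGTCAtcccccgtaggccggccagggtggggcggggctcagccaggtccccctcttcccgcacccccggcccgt
Genes with a match stood on both sides of 0, among them Gclm at 0.72, Sod1 at 0.52, Txnrd1 at 0.05, Pgd at -0.56 and Selenok at -0.84. A match of these letters is a description and not evidence of binding.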

How the data were processed

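UMI counts per cell barcode and gene of 2 inDrops libraries were used as deposited. The authors quantified these counts with the inDrops pipeline against transcripts of GRCm38 (mm10 per the labels, which also name Scanpy). The annotation release and strand setting were not given in the sources used here. The values were checked to be whole numbers. Barcodes with fewer than 1000 counts (477 in PD100, 758 in PD800) or over 20% mitochondrial counts (8 in PD800) were left out, which are the limits the study states, although the study states fewer cells in each library than they left here, 814 and 900. Counts were summed per library and divided by its total (CPM). With 1 library per group, no test was run. Intervals are exact Poisson (CPM), exact conditional Clopper-Pearson (ratios) and exact binomial (shares), all at 95%. A gene with 50 UMIs or more over both libraries was called tested, and 1.5-fold served as a fixed size. Cells were thinned to 1000 UMIs without replacement (seed 1). Scrublet in Scanpy 1.11.5, at an expected rate of 5%, called 14 PD100 and 8 PD800 cells as doublets, which stayed in the main values. The genes of the set and the lists were chosen with earlier results of these data known. By the naming rule a list gene with 200 UMIs or more over both libraries could be named whatever its ratio, and those with fewer that are named were chosen after their values were seen. Junb, Rnaseh2a and Trmt112 were named because they overlap a gene of the set, and the figure of the lists labels extremes after their values were seen. In the tables, 7 list genes stood under an older symbol. Shared stretches, neighbours and codons were taken from GENCODE M21, and promoter windows from RefSeq. Python 3.11.15, NumPy 2.4.6, SciPy 1.17.1 and pandas 2.3.3 were used, and the scripts were tested on simulated data.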

Additional observations from a re-analysis of the deposited data

Results flagged for a closer look

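The barcodes that the filter on cells left out, 477 in PD100 and 766 in PD800, held 1899 and 3843 UMIs of the 10 genes, a signal outside the main comparison. Their log2 CPM ratio of PD800 over PD100 was 1.17 for Prdx1, 0.21 for Txn1 (interval -0.12 to 0.55), -0.34 for Prdx6, -0.47 for Gpx1, -0.55 for Prdx4, -0.94 for Gpx4, -0.98 for Prdx5, -1.04 for Prdx3, -1.50 for Prdx2 and -2.31 for Glrx, and 0.12 for the 10 summed. Each had the sign it had in the cells. Whether these barcodes were cells of low depth or droplets with free RNA was not tested.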

How the results depend on the processing

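Each of the 10 genes was recomputed under 14 alternatives. Prdx1 stayed between 1.24 and 1.75, Txn1 between 0.46 and 0.96, Prdx2 between -1.15 and -0.62 and Glrx between -2.48 and -1.86, and Prdx3, Prdx5, Gpx1 and Gpx4 also kept their sign in all 14. Prdx4 changed sign under both median-of-ratios scalings (up to 0.27), and Prdx6 changed to 0.089 under the scaling over all genes with a UMI in both libraries. The summed log2 ratio of the 10 genes was 0.32 without mitochondrial genes in the total, 0.34 without mitochondrial and ribosomal protein genes, 0.61 with median-of-ratios scaling over tested genes and 0.74 over all genes, and it turned to -0.60 without Prdx1. The median log2 ratio of the 10 genes was -0.32 and -0.19 under these median-of-ratios scalings. The count of genes of the set at least 1.5-fold higher was 2 under both scalings and relative to the median, and the count of lower ones 2 under these and at 2-fold. Under both scalings tested genes split into 24.5% higher and 20% lower, and 28.9% higher and 14.8% lower, in place of 15.2% and 36.6%. Of the list genes, 12 were higher and 13 lower under the scaling over tested genes and relative to the median, 2 and 12 at 2-fold, and 15 were lower when 200 UMIs were required, where fewer genes were tested. The scaling over all genes, leaving out shared barcode names, the limit of 3 endoderm markers and leaving out Prdx1 were chosen after seeing the data. No paired analysis was possible because each group is 1 library. Depth limits Glrx and Prdx3, with under 200 UMIs in each library.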

Other observations

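A long annotated transcript of Prdx1, of 2294 bases, holds a repeat, taken as 17 stretches of 20 bases that each occur in 50 or more other genes. At least 5 of these stretches occur in transcripts of 238 tested genes. Their median log2 ratio was -0.35, beside -0.34 for all tested genes. Of them 13.9% were at least 1.5-fold higher in PD800, beside 15.2% of all tested genes. These genes are not those that share whole 50-base stretches with Prdx1. Of the latter, 34 had a column, with 4175 UMIs in PD100 and 6849 in PD800 summed. Whether reads from shared stretches were counted for Prdx1 was not tested.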
